A study of Mus musculus with 8 samples.

Results

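The interferon-inducible p200 genes encode proteins with a HIN domain that binds DNA, most of them joined to a pyrin domain that binds other proteins. They lie together in 1 cluster on mouse chromosome 1, and the family is known for sensing DNA in the cytosol and nucleus of myeloid cells and for acting on growth and differentiation. Type I interferon raises many of them through the factor ISGF3, which binds the interferon-stimulated response element (ISRE) in promoters. The genes of the family described here, 5 in all, were Ifi203, Ifi204, Ifi205, Mnda and Mndal. They were chosen by the log2 intensities of Ifi204, which differed between the experiments of the series, so differences between experiments are given as descriptions without a test. A gene was taken where a probe set carried its symbol alone, which held for 3 of the 5, Ifi204, Ifi205 and Mndal, each with 1 probe set. Ifi203 stood only on a probe set shared with other genes. No probe set carried the symbol Mnda, which RefSeq lists as a synonym of Ifi211, so Ifi203 and Mnda are not valued here. Mndal, a RefSeq symbol itself, is also listed there as a synonym of Ifi203. Besides its own probe set, Ifi204 stood on 1 that carried several symbols and was not used. The 3 genes are among 22180 with a probe set of their own symbol on the array.

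Dendritic cells were grown from the bone marrow of female wild-type C57BL/6 mice for 7 days in GM-CSF at 21% oxygen and purified by CD11c to a stated purity above 98%. The next 2 days were spent at 2% oxygen, with GM-CSF kept at 20 ng/ml. For the SCF group, 100 ng/ml of stem cell factor, the ligand of the receptor Kit, was then given for 6 further hours, and in the medium group it was left out. The 4 experiments, BC, D2, E and I, each gave 1 array per group, so 4 SCF arrays were paired with 4 medium arrays, and all 8 share the hypoxia and the GM-CSF. Experiments are named below in the order BC, I, D2, E.

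The arrays held 41345 probe sets with a median intensity between 13.3 and 13.9, and 12668 of them were bright enough to be tested. All 8 measured markers of conventional dendritic cells lay above the intensity filter, a mean log2 intensity of 4.05, as did 7 of 7 monocyte and 8 of 10 macrophage markers. Of T and NK cell markers 0 of 6 did, of B cell markers 1 of 4, Pax5, of neutrophil markers 2 of 10, of mast cell and basophil markers 3 of 10, and of plasmacytoid dendritic cell markers 4 of 7. The filter is the median over probe sets with a symbol, so 12668 of 25335 reach it by its definition. Cx3cr1 of the monocyte list, at a mean of 4.07, and Xcr1 of the dendritic cell list, at 4.17, lay near it. Kit itself, counted among the mast cell markers, averaged 6.71 ± 0.26 with SCF and 6.74 ± 0.24 in medium (SD, n = 4 each). Each culture was read as a whole, so fewer cells of a type and less RNA per cell cannot be told apart. All levels below are log2 intensities of 1 probe set, which can be compared between arrays but not between genes.

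Promoter sequences were compared because the genes lie side by side and are known targets of interferon. RefSeq windows (GRCm38.p6) from 250 bases before to 50 after the start site were at hand for 12 p200 genes, 2 of the 3 measured members among them. The ISRE core was searched on both strands as GAAA, any pair of bases, and GAAA again, and capitals mark it below. The 300 bases of the Ifi205 window, chr1:174031706-174032005 on the minus strand, hold 2 matches.
Ifi205: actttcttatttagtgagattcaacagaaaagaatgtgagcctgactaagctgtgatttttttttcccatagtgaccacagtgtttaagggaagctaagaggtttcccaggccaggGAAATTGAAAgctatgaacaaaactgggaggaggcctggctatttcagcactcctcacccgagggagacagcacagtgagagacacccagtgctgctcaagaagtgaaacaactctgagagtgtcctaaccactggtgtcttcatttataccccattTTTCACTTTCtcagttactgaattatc
The first of the 2 Mndal windows, chr1:173880138-173880437 on the minus strand, holds 1 match, which begins 36 bases before the start site.
Mndal: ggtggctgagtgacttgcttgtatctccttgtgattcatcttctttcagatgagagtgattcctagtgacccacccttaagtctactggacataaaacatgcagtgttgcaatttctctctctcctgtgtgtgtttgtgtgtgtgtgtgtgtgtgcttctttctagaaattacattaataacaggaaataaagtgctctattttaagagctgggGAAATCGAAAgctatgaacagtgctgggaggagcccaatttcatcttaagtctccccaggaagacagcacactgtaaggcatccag

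The ISRE core stood in 10 of the 14 p200 windows, against 3.44% of all 32851 windows of this length. Counted by gene, it stood in 9 of the 12. In 7 genes the match read GAAATCGAAA, a decamer that only 16 of all windows (0.0487%) held on either strand. In Ifi205 and Ifi211 the upstream match read GAAATTGAAA. The stretches below, each with 10 bases on either side and all within the cluster on chromosome 1, show how far the sequence around the core is shared.
Mndal, chr1:173880204-173880233, minus strand: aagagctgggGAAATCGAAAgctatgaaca
Ifi203, chr1:173942508-173942537, minus strand: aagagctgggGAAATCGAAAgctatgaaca
Ifi205, chr1:174031870-174031899, minus strand: ccaggccaggGAAATTGAAAgctatgaaca
Ifi211, chr1:173913064-173913093, minus strand: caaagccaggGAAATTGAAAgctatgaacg
Ifi207, chr1:173741831-173741860, minus strand: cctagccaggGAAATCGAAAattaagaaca
Ifi208, chr1:173673597-173673626, plus strand: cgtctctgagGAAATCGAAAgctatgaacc
Ifi213, chr1:173599326-173599355, minus strand: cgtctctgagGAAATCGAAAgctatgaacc
Ifi206, chr1:173491339-173491368, minus strand: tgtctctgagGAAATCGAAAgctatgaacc
Ifi214, chr1:173536017-173536046, minus strand: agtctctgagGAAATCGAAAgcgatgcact
The Mndal and Ifi203 stretches are identical, as are those of Ifi208 and Ifi213. The windows of Aim2, Ifi202b and Ifi209 do not hold these letters. The GAS core, the site of the interferon gamma pathway searched as TTCNNNGAA, stood in 1 of the 14 p200 windows, that of Ifi202b, against 8.30% of all windows. A match is a run of letters, and binding was not measured.

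Ifi204, also called p204, encodes a DNA sensor that acts with STING and is the mouse gene most often set beside human IFI16. With SCF its log2 intensity was 5.14 in BC, 5.74 in I, 6.54 in D2 and 7.31 in E. In medium it was 5.84 in BC, 5.92 in I, 6.74 in D2 and 7.64 in E. The SCF array was the lower one of its pair in every experiment, but the groups overlapped widely, since the experiments differed by more than the pairs did. On the linear scale the lowest array, SCF of BC, read 35.3 and the highest, medium of E, 200.

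Ifi205, a p200 gene first described as an interferon-activated transcript, measured 5.99 in BC, 6.20 in I, 6.64 in D2 and 6.87 in E with SCF. In medium it measured 6.18 in BC, 6.05 in I, 6.89 in D2 and 6.75 in E. The SCF array was the lower of the pair in BC and D2 and the higher in E and I, and the groups overlapped. Mndal, named for its likeness to the myeloid nuclear differentiation antigen gene, measured 5.79 in BC, 5.89 in I, 6.16 in D2 and 6.31 in E with SCF. In medium it measured 5.68 in BC, 5.88 in I, 6.29 in D2 and 6.39 in E. Its groups overlapped as well, and arrays of 1 experiment lay close together.

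**Figure D1:**
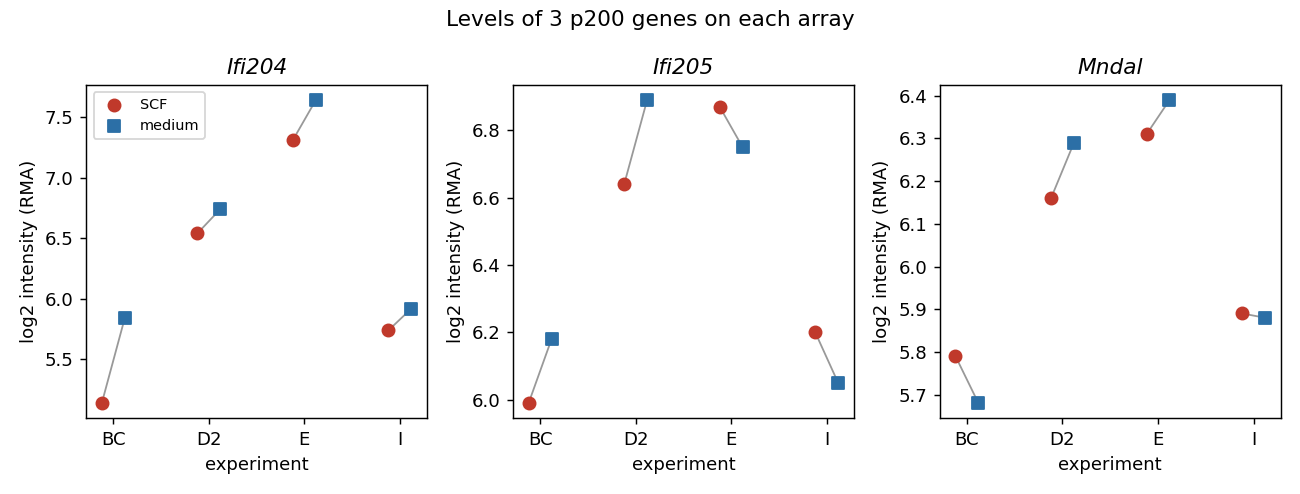
Log2 RMA intensity (y axis, its own scale in each panel) of Ifi204, Ifi205 and Mndal by experiment (x axis), with SCF as red circles to the left of medium as blue squares and a line joining the pair. Ifi204 runs from 5.14 to 7.64 and its SCF array is the lower one in all 4 pairs, while the other genes have pairs in both directions.

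The comparison of SCF with medium asked whether 6 hours of Kit ligand altered these genes in hypoxic dendritic cells. Experiment was a block in the limma fit, whose adjusted p stayed above 0.05 for all 3 members, so that 0 of 3 were called, beside 0% of all probe sets tested. A plain paired statistic with no shared variance also called 0 probe sets, with 603 at an unadjusted p under 0.05. At an unadjusted p under 0.05 stood 1 of 3, Ifi204, against 4.21% of all probe sets, of which 2.26% were lower and 1.95% higher with SCF. That is 286 lower and 247 higher, which became 372 lower and 117 higher with the array medians equalized and 399 lower and 169 higher after a repeated quantile normalization.

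Ifi204 averaged 6.18 ± 0.94 with SCF and 6.54 ± 0.84 in medium (SD, n = 4 each). Its SCF minus medium difference was −0.70 in BC, −0.18 in I, −0.19 in D2 and −0.34 in E. The fitted log2 fold change was −0.35 (SE 0.09, limma unadjusted p = 0.00551, adjusted p = 0.945), a 0.783-fold level with a 95% interval of 0.676 to 0.908. Without BC the log2 fold change was −0.24. A difference below 0 in 4 of 4 experiments was found in 6.44% of all probe sets tested. Among the 12668 probe sets tested, 29 had a smaller limma p than Ifi204. The exact two-sided sign-flip permutation over the 4 pairs gave p = 0.13, the smallest it allows. Without the block for experiment the unadjusted p was 0.487 in limma, and with experiment as a random block it was 0.298, so the count at that level was 0 of 3 in both. It was also 0 of 3 by the plain paired statistic.

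Ifi205 averaged 6.42 ± 0.40 with SCF and 6.47 ± 0.42 in medium (SD, n = 4 each). Its differences were −0.19 in BC, 0.15 in I, −0.25 in D2 and 0.11 in E. For Ifi205 the fitted log2 fold change was −0.04 (SE 0.08, limma adjusted p = 0.976). Leaving out BC gave 0.01, and leaving out D2 gave 0.02. The 95% interval, 0.85 to 1.11-fold, holds changes in either direction. Mndal averaged 6.04 ± 0.24 with SCF and 6.06 ± 0.33 in medium. Its differences between the pairs were 0.11 in BC, 0.00 in I, −0.13 in D2 and −0.08 in E. Its fitted log2 fold change was −0.02 (SE 0.06, limma adjusted p = 0.983), or 0.01 without D2, with an interval of 0.896 to 1.08-fold. For both genes the difference between the groups was smaller than the spread between experiments.

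**Figure D2:**
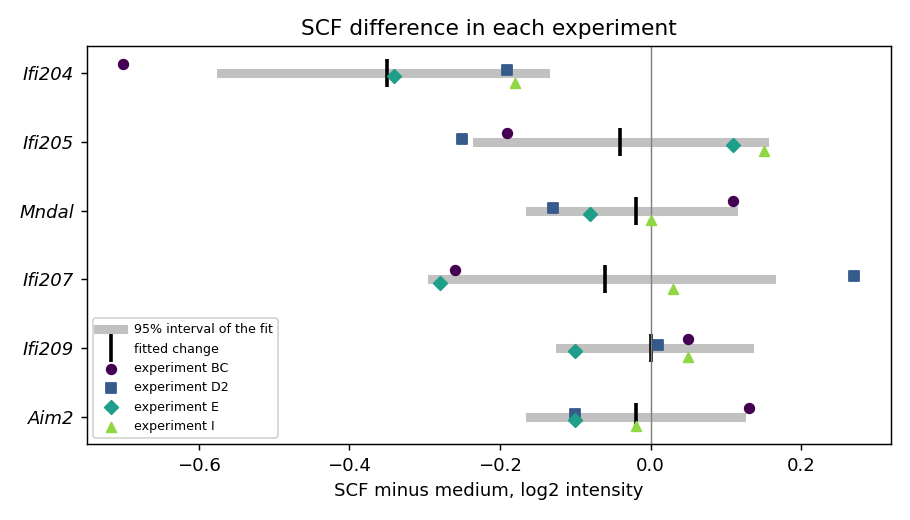
SCF minus medium in log2 intensity (x axis) for the 3 members and 3 further p200 genes (y axis), with a symbol per experiment, a black tick for the fitted change and a grey bar for its unadjusted 95% interval. The bar of Ifi204, −0.57 to −0.14, lies below 0, and those of the other 5 genes hold 0.

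Monocyte and macrophage markers were set beside this comparison, since p200 genes are expressed in both. Of the tested markers 6 of 7 for monocytes and 7 of 8 for macrophages had a fitted change below 0, against 49.5% of all probe sets, and 0 of them passed. Csf1r counts in both lists, and the median log2 fold change was −0.05 in each. Mrc1 and Ccr2 were lowest in BC, at −0.64 and −0.47, and above 0 in D2, as Mrc1 was in I, at 0.05. The markers with a fitted change above 0 were Cx3cr1 and C1qa. Cx3cr1, of the monocyte list, was at 0.13 (SE 0.06), higher with SCF in 4 of 4 experiments. C1qa, of the macrophage list, was at 0.07 (SE 0.06), higher in 3 of 4. Mertk, at −0.20 (SE 0.07, limma adjusted p = 0.945), was below 0 in 4 of 4 experiments, with −0.46 in BC. The summed intensity of the monocyte list lay between 967 and 1480 with SCF and between 1085 and 1517 in medium, and no marker was at 0. It was 967 with SCF and 1195 in medium in BC, 1075 with SCF and 1085 in medium in I, 1307 with SCF and 1208 in medium in D2, and 1480 with SCF and 1517 in medium in E. The sum was thus lower with SCF in BC, I and E and higher in D2. A sum of linear intensities weighs bright probe sets most, here Csf1r and Fcgr1, at mean log2 intensities of 9.13 and 8.14. The macrophage list, with Maf and C1qc below the intensity filter, summed to 1833 with SCF and 2121 in medium in BC. It summed to 2063 with SCF and 2100 in medium in I, and to 2536 with SCF and 2545 in medium in E. Only in D2 was it higher with SCF, at 2076 against 2004 in medium. The part of these cells in the Ifi204 difference was not tested.

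Between experiments, Ifi204 varied more than nearly all probe sets tested. The mean of its 2 arrays was 5.49 in BC, 5.83 in I, 6.64 in D2 and 7.48 in E. These means span 1.98 log2 units, a 3.95-fold range, or 1.15 when E is left out. The ranges of the 2 arrays overlapped between BC and I but not between I and D2 or between D2 and E. Over all tested probe sets the median span was 0.20, the 95th percentile was 0.52, and 0.442% reached a span of 1. Only 1 probe set had a span wider than Ifi204, but Ifi204 was picked for this difference, and the span is no evidence beyond it.

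Ifi205 and Mndal had the same order of experiment means, with spans of 0.73 and 0.61, a 1.66-fold and a 1.53-fold range. For Ifi205 the means were 6.08 in BC, 6.12 in I, 6.76 in D2 and 6.81 in E, and the arrays of BC and I overlapped, as did those of D2 and E. For Mndal they were 5.74 in BC, 5.89 in I, 6.23 in D2 and 6.35 in E, with no overlap between neighbours. The order BC, I, D2, E was found in 5.04% of all tested probe sets, and 8.26% were lowest in BC and highest in E. Experiment accounted for 93.3% of the sum of squares of Ifi204, 93.3% of that of Ifi205 and 96.7% of that of Mndal, beside a median of 61.8% over the tested probe sets. Treatment accounted for 4.92%, 0.394% and 0.218% in the same genes, beside a median of 5.19%. Whether these probe sets also bind transcripts of related p200 genes was not tested.

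**Figure D3:**
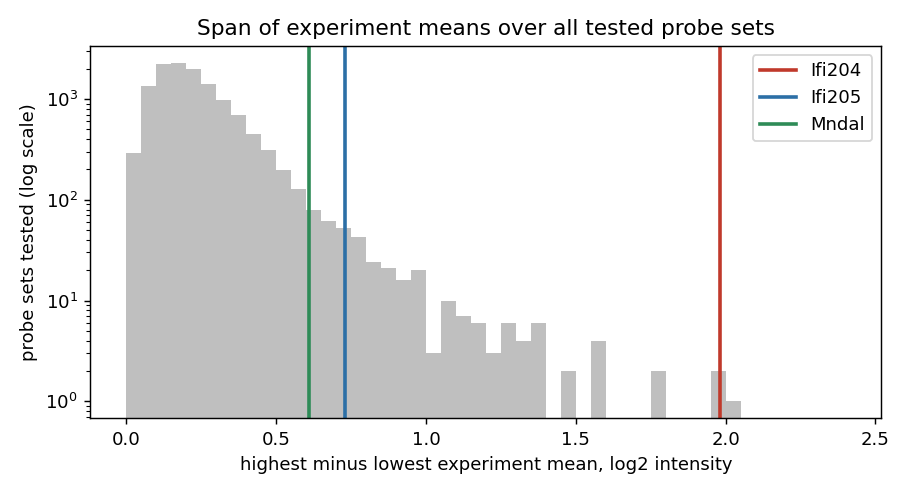
Number of tested probe sets (y axis, log scale) by the span between the highest and lowest experiment mean in log2 intensity (x axis), with lines at Ifi204, Ifi205 and Mndal. The lines stand at 1.98, 0.73 and 0.61, against a median of 0.20.

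Of 7 further p200 genes with a probe set of their own, 3 were bright enough to be tested and 0 passed. Aim2, the DNA sensor of the inflammasome, averaged 8.03 ± 0.12 with SCF and 8.05 ± 0.21 in medium (SD, n = 4 each). Its log2 fold change was −0.02 (SE 0.06, limma adjusted p = 0.985), or −0.07 without BC and 0.01 without D2 or without E. Its experiment means were 7.89 in BC, 7.95 in I, 8.07 in E and 8.25 in D2, so that D2 and not E was the highest. Ifi209 averaged 8.24 ± 0.24 with SCF and 8.24 ± 0.31 in medium, with a log2 fold change of 0.00 (SE 0.05, limma adjusted p = 0.999), or −0.02 with the array medians equalized. Ifi207 averaged 4.39 ± 0.36 with SCF and 4.45 ± 0.41 in medium, with a log2 fold change of −0.06 (SE 0.10, limma adjusted p = 0.968), or −0.17 without D2 and 0.01 without E. Both were highest in E, at 8.64 for Ifi209 and 4.90 for Ifi207, and lowest in I, at 8.02 and 4.12. Ifi202b, Ifi208, Ifi213 and Ifi214 lay below the filter on every array, between 2.32 and 3.25. Of these, Ifi208, Ifi213 and Ifi214 carry the same decamer in their promoters as Mndal and Ifi207. The means of Mndal and Ifi207 lay above the filter, though Ifi207 read 4.02 on the SCF array of BC, below it. Intensities of different genes cannot be compared, so no link to the decamer is drawn.

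Genes with an experiment profile near that of Ifi204 were ranked by the root mean square difference of log2 values over the 8 arrays, each gene centred on its own mean. Among 11350 tested genes the 5 nearest were 9930111J21Rik2 at 0.29, Gm20559 at 0.29, the olfactory receptor gene Olfr110 at 0.33, Cd14 at 0.34 and Ccr2 at 0.35, where the median gene stood at 0.80. Cd14 encodes a coreceptor for lipopolysaccharide, and Ccr2 the chemokine receptor that brings monocytes out of the marrow. Ccr2 measured 5.05 in BC, 5.25 in I, 5.96 in D2 and 6.22 in E with SCF, and 5.52 in BC, 5.41 in I, 5.81 in D2 and 6.53 in E in medium. The ranking used both arrays of each pair, so likeness in the SCF minus medium difference was part of the choice. The nearest gene, 9930111J21Rik2, was lower with SCF in 4 of 4 pairs, and its fitted change was −0.25 (SE 0.07, limma adjusted p = 0.945). That it shared this direction with Ifi204 is no evidence beyond the choice. Olfr110 and Ccr2 were lower with SCF in 3 of 4 pairs, and Gm20559 and Cd14 in 2 of 4. Both Ccr2 and Cd14 were highest in E, at experiment means of 6.38 and 6.01. The arrays are paired, so the 8 values rest on 4 experiments. Between 1 and 4 of these 5 genes were again among the nearest when 1 experiment was left out. Within the family Ifi207 stood at 0.49, Ifi205 at 0.50, Mndal at 0.57, Ifi209 at 0.60 and Aim2 at 0.72. Of all genes compared, 41 were nearer to Ifi204 than Ifi207 was. A gene with equal values on all 8 arrays would stand at 0.79, so the measure depends on the size of the swing as well as on its order.

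**Figure D4:**
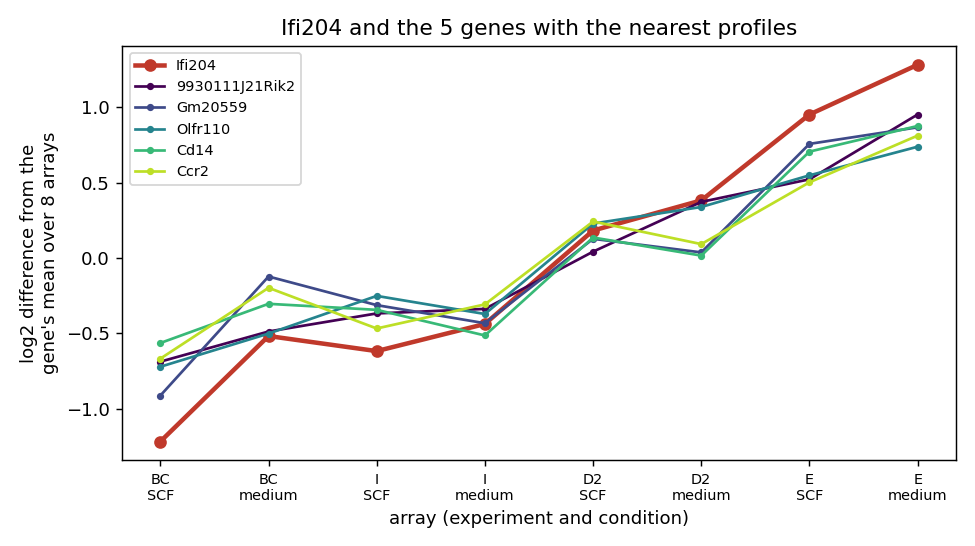
Log2 difference from each gene's own mean over the 8 arrays (y axis) for Ifi204 and the 5 genes with the nearest profiles, by array (x axis, experiments in the order of the Ifi204 means, SCF left of medium). All 6 genes are highest in E, and the swing of Ifi204 is wider than that of the others, whose experiment means span 1.09 to 1.33.

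Genes that interferon induces were compared by experiment, because the p200 genes belong to that response. Of 24 tested genes of a classical interferon-stimulated list, 20 had their highest experiment mean in E, where 24.4% of all tested probe sets did, and 12 were lowest in BC as well. The median deviation of the list from its mean over experiments was −0.18 in BC, −0.08 in I, −0.13 in D2 and 0.29 in E. Ifi204 deviated by −0.87 in BC, −0.53 in I, 0.28 in D2 and 1.12 in E, Ifi205 by 0.32 in D2 and 0.37 in E, and Mndal by 0.18 in D2 and 0.30 in E. The members were thus above their mean in D2, where the median of the interferon list lay below 0. The members' order BC, I, D2, E was held by 6 of the 24 tested genes of that list, against 5.04% of all tested probe sets. Rtp4, an interferon-induced chaperone gene chosen after its values were seen, had means of 4.93 in BC, 5.17 in I, 5.34 in D2 and 6.50 in E. Irf7, the interferon-induced regulator of interferon genes and chosen in the same way, had means of 4.92 in BC, 5.17 in I, 5.13 in D2 and 6.41 in E. The median deviation of the monocyte list was −0.21 in BC, −0.16 in I, −0.01 in D2 and 0.20 in E. Of its markers 3 of 7 were highest in E. That of the macrophage list was −0.14 in BC, −0.02 in I, −0.07 in D2 and 0.18 in E, with 7 of 8 tested markers highest in E. For the RNA quality list the median deviation lay between −0.01 and 0.04, though its gene Hprt ran from 7.25 in BC to 7.61 in D2. The parts of interferon and of cell mixture in the Ifi204 pattern were not tested.

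**Figure D5:**
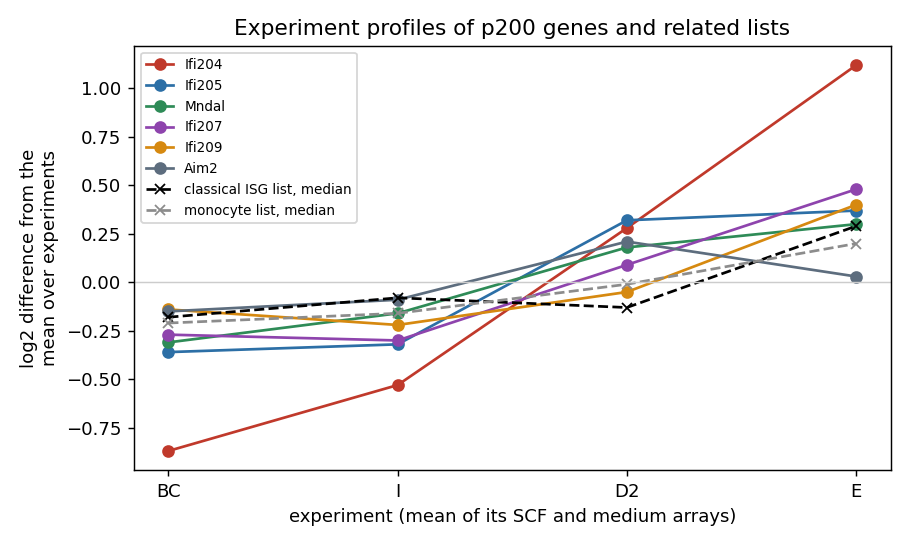
Log2 deviation of each experiment mean from the gene's mean over experiments (y axis) for 6 p200 genes, and the median deviation of the classical interferon-stimulated (ISG) and monocyte lists, by experiment (x axis). Ifi204 runs from −0.87 to 1.12, and in D2 its deviation of 0.28 stands beside −0.13 for the interferon list.

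The rest of the pathway showed no gene past the threshold with SCF. In the classical interferon-stimulated list 0 of 24 tested genes passed in either direction, with a median log2 fold change of −0.03 beside 0.0008 over all probe sets. The antiviral GTPase gene Mx1 was at 0.15 (SE 0.06, limma adjusted p = 0.945) and Eif2ak2, the kinase gene that halts translation on double-stranded RNA, at −0.13 (SE 0.06), both with the same sign in 4 of 4 experiments. Xaf1 was at 0.13 (SE 0.07) and the RNA sensor gene Ddx58 at −0.11 (SE 0.07), with Xaf1 at 0.08 without E and Ddx58 at −0.18 without D2 and −0.07 without BC. Among interferon receptors and their signalling proteins 0 of 15 passed, with a median of 0.02. The kinase gene Tyk2 was at 0.12 (SE 0.05), and Irf1, Irf8 and Irf9, the last a part of ISGF3, were at 0.08, 0.07 and 0.07, with Irf9 at 0.03 without D2. Of the interferon genes 4 of 13 were bright enough to be tested and 0 passed, with a median of 0.04 and Ifna4 at 0.18 (SE 0.09), which was 0.08 without E and 0.27 without I. Ifnb1, the interferon beta gene, lay below the filter.

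In the list of DNA sensing genes 0 of 15 passed, with a median log2 fold change of −0.00. The kinase gene Ikbke was at 0.12 (SE 0.06), or 0.07 without D2, and Irf3, the factor that STING signalling activates, at 0.08 (SE 0.05), both above 0 in 4 of 4 experiments, where 6.43% of probe sets were. Dhx36 was at −0.09 (SE 0.06) and the inflammasome caspase gene Casp1 at −0.07 (SE 0.05), both below 0 in 4 of 4. Dhx36 was at −0.05 without E, and Casp1 at −0.03 without D2. Of the growth and differentiation genes that p200 proteins are known to act with, such as the retinoblastoma gene Rb1, 0 of 13 passed, with a median of 0.01. Rb1 was at −0.03 (SE 0.06), −0.07 without BC, and 0.02 as the mean of its probe sets. At a limma unadjusted p under 0.05 stood Mx1 and Eif2ak2 of the 24 interferon-stimulated genes and Tyk2 of the 15 receptor and signalling genes. None did of the 4 interferon, 15 DNA sensing and 13 growth and differentiation genes tested. Over all probe sets tested the share was 4.21%, so these few genes do not set the lists apart.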

How the data were processed

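RNA of 8 cultures was read on 1-colour Affymetrix arrays. Intensities were deposited on a linear scale, as the values show, 1 for each probe set on each array. RMA is the tool named, per the submitters' processing notes, with no version or filter stated there. Log2 was taken with no further normalization. Of 41345 probe sets 23521 had 1 gene symbol in the platform annotation, 1814 several and 16010 none. Those with a symbol and a mean log2 intensity of at least 4.05, the median over probe sets with a symbol, were tested (12668). A gene was represented by its probe set with the highest mean. The table has no detection call, so signal over background is unknown, and 4 arrays per group limit the precision.

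SCF was compared with medium by limma 3.58.1 in R 4.3.3 (lmFit, eBayes, two-sided, Benjamini-Hochberg over all probe sets tested), with experiment as a block, since the design text states that dendritic cells were grown anew for each experiment. Deviations from group means correlated at 0.36 to 0.46 within experiments, and at up to 0.31 between SCF and medium arrays of different experiments. The fit was tested on simulated data. The members and lists were chosen with earlier results of these data known. Besides the members, other p200 genes, up to 4 genes per list by smallest p, and the 5 nearest profiles of members spanning at least 1 log2 unit were named. RefSeq gave synonyms and promoters (GRCm38.p6).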

Additional observations from a re-analysis of the deposited data

Results flagged for a closer look

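In groups of 4 values, 5 of 105 held an array or difference far from the other 3, where chance gives about 1 in 20, and none of the 5 concerned a p200 gene. The medium array of D2 read 5.50 for Ikbke, against 5.75 to 5.78 in the other medium arrays. The SCF array of BC read 6.99 for Irf3, against 6.90 to 6.91 in the other SCF arrays. For Casp1 the SCF minus medium difference of D2 was −0.17, against −0.04 to −0.02 elsewhere. The medium array of D2 read 6.94 for Irf1, with the other medium arrays at 7.16. The SCF array of I read 9.42 for Junb, against 9.20 to 9.23 in the other SCF arrays.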

How the results depend on the processing

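Of the 3 members 0 passed the adjusted threshold under each of 13 alternatives, and 0 probe sets passed under any of them. The log2 fold change of Ifi204 lay between −0.41 and −0.24 when an experiment was left out and between −0.37 and −0.28 otherwise (limma adjusted p from 0.808 to 1.0). It was below 0 under all 14 alternatives tried, but most of them could not turn its sign. All 4 differences were below 0, so leaving out an experiment could not. Other choices of block, variance or filter leave the fitted change of a balanced paired design at −0.35. So does a mean over probe sets, as Ifi204 has 1. In the fit with no replicate block its change was −0.35 with an SE of 0.49. The number of probe sets at an unadjusted p under 0.05 was 125 with no replicate block, 856 with no intensity filter and 340 without BC, against 533. Dropping the block for paired experiments changed no adjusted call. When an experiment was left out, the fitted change turned sign for Ifi205 (−0.11 to 0.02), Mndal (−0.07 to 0.01), Ifi207 (−0.17 to 0.01), Aim2 (−0.07 to 0.01), Ifi209 (−0.01 to 0.04), Ifnl3 (−0.20 to 0.04), Ifnl2 (−0.08 to 0.21), Ifna1 (−0.05 to 0.16), Id1 (−0.03 to 0.12) and Cdkn1b (−0.11 to 0.04). Ifi209 turned to −0.02 with the array medians equalized, which move all genes of an array alike, and Rb1 to 0.02 as the mean of its probe sets. The other causes were not tested. The span of experiment means of Ifi204 lay between 1.15 and 1.98 when an experiment was left out. The 5 genes nearest to Ifi204 shared 3 with the choice on the log2(intensity + 16) scale. Ifi203 and Mnda gave no value under any setting.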
